A study of Mus musculus with 2 samples.

Results

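Sodium transport control was followed through the nuclei of the mouse colon in 8 genes: Sgk1, Sgk2, Scnn1a, Scnn1b, Scnn1g, Nr3c2, Hsd11b2 and Nedd4l. They were taken by symbol, and all 8 of 8 were found among the 32285 genes of the count tables. One library of sorted nuclei came from the colon of Pink1 knockout mice (Pink1 KO) and 1 from that of wild-type littermates (WT), both read as 3' tags on the 10x platform. The Pink1 protein is a mitochondrial kinase that flags damaged mitochondria for degradation. All animals were males of the C57BL/6 background aged 15 weeks, and the nuclei of 3 mice per genotype were pooled into 1 library before loading. No value therefore has a replicate check, no test between genotypes was possible, and the spread between mice is not known. The Pink1 KO library carries batch label 2 and the WT library batch label 1, so genotype, library and batch cannot be told apart.

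The epithelial sodium channel carries sodium from the gut lumen into surface cells of the distal colon and is built from the alpha, beta and gamma subunits encoded by Scnn1a, Scnn1b and Scnn1g. Aldosterone acts on it through the mineralocorticoid receptor, encoded by Nr3c2, and the enzyme made by Hsd11b2 protects that receptor by inactivating corticosterone. The ubiquitin ligase made by Nedd4l marks the channel for removal from the membrane, and the steroid-inducible kinase made by Sgk1 phosphorylates this ligase so that it no longer binds the channel. Sgk2 encodes a related kinase.

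The Pink1 KO library held 12230 barcodes and 22446326 UMIs, and the WT library 8924 barcodes and 16997995 UMIs. After filtering, 10966 Pink1 KO and 8256 WT nuclei were kept, with medians of 1571 and 1624.5 UMIs, and 22 of the kept barcodes occurred in both libraries. The nuclei fell into 30 clusters, of which 26 took 1 of 16 class names from marker genes and 4 stayed unnamed. The 8 genes played no part in the clustering. Pink1 itself had 113 counts in the Pink1 KO library and 171 in the WT library, a ratio of 0.537 of its levels (0.420 to 0.686). Which part of Pink1 was deleted is not stated in the labels. Levels are CPM, the UMIs of a gene scaled by all nuclear-encoded UMIs of its class and library, ratios are Pink1 KO over WT, and ranges in parentheses are 95% intervals for counting error only. A ratio is given where both libraries had at least 100 nuclei and the gene at least 20 counts.

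Muc2, the goblet cell mucin, served as a gauge of free RNA. It was found in 17.8% of Pink1 KO and 23.4% of WT smooth muscle-like nuclei thinned to 500 UMIs each. Without thinning the shares were 39.3% and 50.2%, where nuclei had medians of 1275 and 1240 UMIs. Over all nuclei outside the epithelium (2346 Pink1 KO and 1408 WT, leaving aside enteroendocrine-like and tuft-like nuclei) the level of Muc2 was 10.7% of its epithelial level in the Pink1 KO library and 15.8% in the WT library. Nr3c2 stood at 10.9% and 16.9% of its epithelial level there, Sgk2 at 6.88% and 10.0%, and Hsd11b2 at 6.17% and 17.6%, which puts these genes outside the epithelium at about the level of free RNA. For Sgk1 the values were 48.6% in the Pink1 KO and 63.3% in the WT library, and for Nedd4l 50.7% and 50.6%, well above it. The channel genes were less even: Scnn1a stood at 15.5% in the Pink1 KO and 32.3% in the WT library, Scnn1b at 7.79% and 27.2%, and Scnn1g at 8.76% and 0. The WT value of Scnn1a, from 30 counts outside the epithelium, is thus above the gauge as well. For Scnn1b the WT value rests on 7 counts there, and Scnn1g had 1 in the Pink1 KO and 0 in the WT library. These counts are too few to be set against the gauge.

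The level of Sgk1 was higher in the Pink1 KO library in each of the 12 epithelial clusters and each of the 6 classes with a ratio. Over all nuclei it had 6127 counts in the Pink1 KO library and 812 in the WT library, or 330 CPM in the Pink1 KO and 53.9 CPM in the WT library, a ratio of 6.14 (5.70 to 6.61). Of the 8 genes, 3 (Sgk1, Sgk2 and Hsd11b2) were at least 1.5-fold higher over all nuclei and none was as much lower, where 6.73% of the 16556 genes with at least 20 counts were as much higher and 8.13% as much lower. Single nuclei did not carry this: the nucleus with most Sgk1 UMIs held 15 in the Pink1 KO library and 8 in the WT library, and a UMI was found in 2852 and 605 nuclei.

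**Figure D1:**
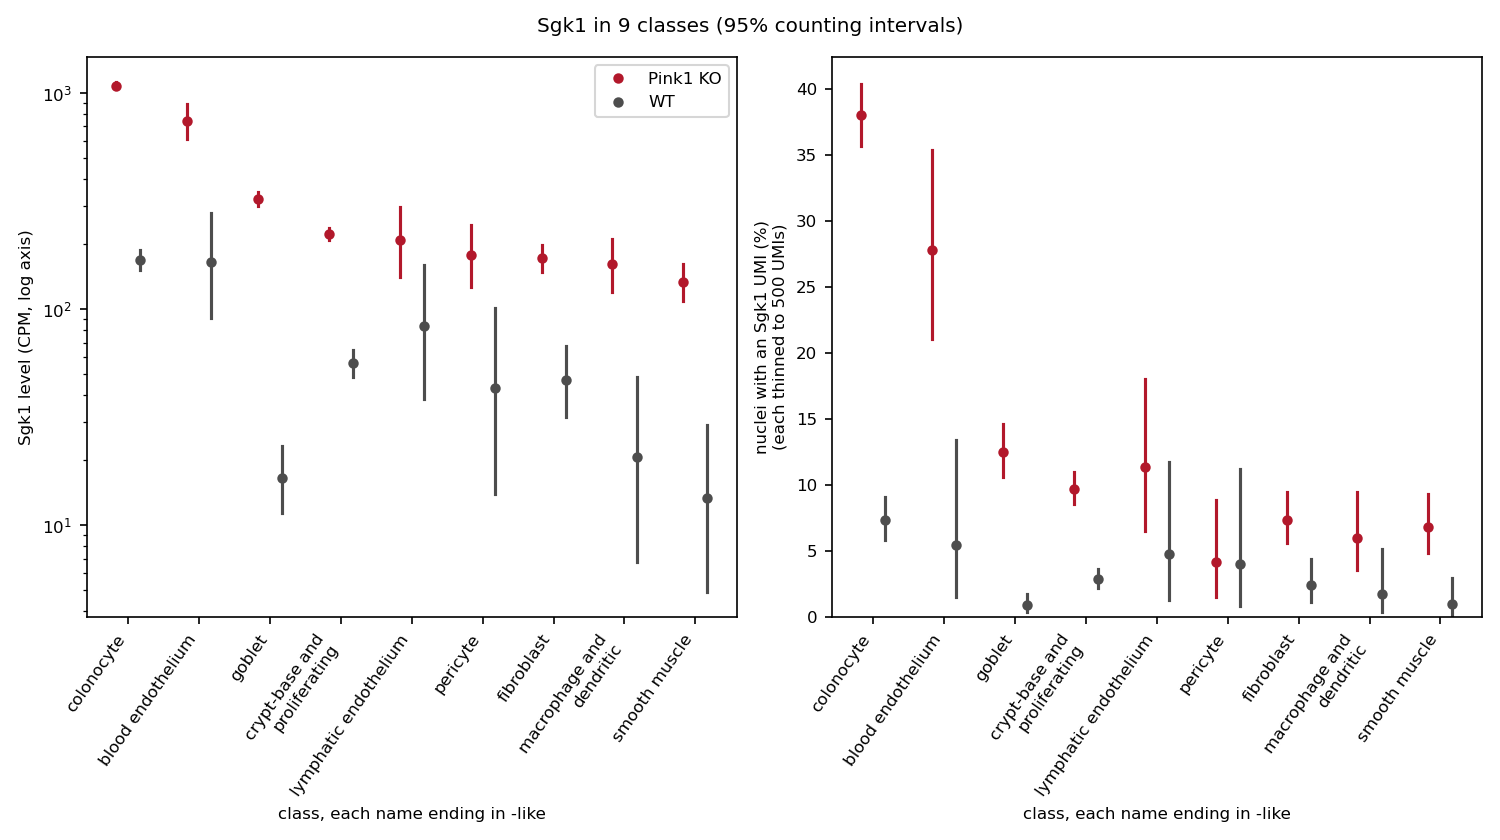
Sgk1 in 9 named classes, with Pink1 KO (red) left of WT (grey); the left panel gives CPM on a log axis and the right panel the share of nuclei with an Sgk1 UMI after thinning to 500 UMIs, and bars are 95% intervals for counting error. The Pink1 KO point lies above the WT point in every class by level, by the widest margin in goblet-like nuclei at 323 CPM in the Pink1 KO and 16.6 CPM in the WT library.

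Colonocyte-like nuclei, the absorptive cells, had the highest Sgk1 level of the 6 classes in both libraries. It was 1079 CPM in Pink1 KO and 169 CPM in WT colonocyte-like nuclei (3197 and 354 counts), a ratio of 6.37 (5.71 to 7.13). Thinned to 500 UMIs, 38.0% of Pink1 KO and 7.39% of WT colonocyte-like nuclei held an Sgk1 UMI, and unthinned 65.4% and 21.2%. The class has 3 clusters, and each showed the difference. Cluster 9 made up 588 of 1667 Pink1 KO and 277 of 1056 WT nuclei of the class, so the class ratio also carries the mix of clusters. With clusters weighted equally it was 5.91. Cluster 9, led by the bile acid transporter gene Slc10a2, had 1410 CPM in the Pink1 KO and 266 CPM in the WT library. Cluster 7, led by the sodium-proton exchanger gene Slc9a3, had 1041 CPM in the Pink1 KO and 138 CPM in the WT library. Cluster 8, led by Aqp8 and Car4 among others, had 740 CPM in the Pink1 KO and 136 CPM in the WT library. In the Pink1 KO library the intervals of these 3 clusters did not overlap, while in the WT library clusters 7 and 8 could not be told apart.

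Goblet-like nuclei, which secrete the mucus, had the largest Sgk1 ratio of the 6 classes, and one of the lowest WT levels. The level was 323 CPM in Pink1 KO and 16.6 CPM in WT goblet-like nuclei, from 713 and 33 counts, a ratio of 19.4 (13.7 to 28.5). With the same 10% free RNA subtracted from both libraries the ratio was 25.8, so its size depends on how free RNA is treated. Cluster 10, led by Reg4, Mptx1 and Spink4, had 413 CPM in the Pink1 KO and 14.6 CPM in the WT library (296 and 12 counts), a ratio of 28.3 (15.9 to 55.3). Cluster 4, led by the mucus genes Fcgbp, Zg16 and Clca1, had 280 CPM in the Pink1 KO and 18.0 CPM in the WT library, a ratio of 15.5 (10.0 to 25.3). The colonocyte-like level was 3.34 times the goblet-like level in the Pink1 KO library (3.08 to 3.63) and 10.2 times in the WT library (7.13 to 15.0), so these intervals did not overlap. Among the 12 epithelial clusters, cluster 10 came next after the 3 colonocyte-like clusters in the Pink1 KO library and last in the WT library, where its interval overlapped those of clusters 0, 2, 4 and 13.

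Crypt-base and proliferating nuclei are those of stem and dividing cells, and in them Sgk1 had 223 CPM in the Pink1 KO and 56.2 CPM in the WT library, a ratio of 3.97 (3.40 to 4.65). Its lowest cluster ratio was found here, 2.76 (2.11 to 3.66) in cluster 3, led by Dmbt1 and Hoxb8. Unnamed cluster 6, led by Apol10a and Hsd3b3, had 331 CPM in the Pink1 KO and 66.6 CPM in the WT library, and unnamed cluster 0, led by Gsdmc3 and Gk, 82.7 CPM in the Pink1 KO and 25.3 CPM in the WT library.

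Stromal, muscle and immune nuclei also differed. Fibroblast-like nuclei had 172 CPM in the Pink1 KO and 47.1 CPM in the WT library, a ratio of 3.65 (2.47 to 5.56). Smooth muscle-like nuclei had 134 CPM in the Pink1 KO and 13.4 CPM in the WT library from 101 and 6 counts, a ratio of 9.95 (4.41 to 27.7), and macrophage and dendritic-like nuclei 161 CPM in the Pink1 KO and 20.8 CPM in the WT library from 53 and 5 counts, a ratio of 7.75 (3.12 to 24.8). Both ratios rest on few WT counts: without doublet removal the smooth muscle-like one was 4.45, and thinned to 500 UMIs a nucleus the macrophage and dendritic-like one was 3.75. Blood endothelium-like nuclei held the second highest level of the classes, 740 CPM in the Pink1 KO and 166 CPM in the WT library (115 and 14 counts), but with 73 WT nuclei they carry no ratio. The immediate early gene Fos, which stimulated cells switch on within minutes, stood beside these values at 817 CPM in the Pink1 KO and 187 CPM in the WT library in colonocyte-like, 578 CPM in the Pink1 KO and 80.5 CPM in the WT library in goblet-like and 333 CPM in the Pink1 KO and 20.4 CPM in the WT library in fibroblast-like nuclei. Its part in the Sgk1 difference was not tested.

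The start of Sgk1 (ENSMUSG00000019970; GRCm38, chromosome 10, plus strand, 21882184 to 21999903) has 6 entries in RefSeq's promoter windows, each from 250 bases before to 50 bases after an annotated start. One window is shown because it holds the palindrome through which the glucocorticoid and mineralocorticoid receptors bind DNA, searched on both strands as AGAACA, any 3 bases and TGTTCT, and set in capitals.

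Sgk1 chr10:21993640-21993939 (GRCm38.p6, plus strand): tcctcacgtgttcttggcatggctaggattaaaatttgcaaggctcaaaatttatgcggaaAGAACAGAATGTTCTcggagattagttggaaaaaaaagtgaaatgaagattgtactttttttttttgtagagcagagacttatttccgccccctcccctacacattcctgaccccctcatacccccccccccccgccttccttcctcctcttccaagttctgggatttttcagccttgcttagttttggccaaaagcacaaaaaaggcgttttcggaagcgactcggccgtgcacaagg

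The match, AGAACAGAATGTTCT, spans bases 21993701 to 21993715, which is 951 bases upstream of the last annotated start at 21994666. It is inside the Sgk1 gene, since the first annotated start lies 112482 bases before the last. Of 32851 windows in the genome 3 hold this palindrome (0.00913%). The windows of Scnn1b, Scnn1g and Nr3c2, 1 each, do not hold these letters, and the other 4 genes were not matched to a window. Other motifs were searched as well. The single arm TGTTCT of that palindrome is in 3 Sgk1 windows and in 19.0% of all windows, the E-box CACGTG in 1 and 7.15%, and TATAAA on the gene's own strand in 2 and 8.32%. The cAMP response palindrome TGACGTCA (1.79%) and the CArG box bound by serum response factor (1.63%) are in no window of these genes. A match of letters describes the sequence and says nothing of binding in these nuclei.

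Sgk2 (ENSMUSG00000017868; chromosome 2, 162987330 to 163014127) belonged to colonocyte-like nuclei, which held 88.7% of its counts in the Pink1 KO and 80.6% in the WT library. Its level there was 216 CPM in the Pink1 KO and 121 CPM in the WT library, from 641 and 254 counts, a ratio of 1.78 (1.54 to 2.07). Cluster 9 stood highest, with 419 CPM in the Pink1 KO and 256 CPM in the WT library, and a ratio of 1.63 (1.34 to 2.00). That is 4.17 times the level of cluster 8 in the Pink1 KO library (3.28 to 5.35) and 3.84 times in the WT library (2.86 to 5.21). In cluster 8 Sgk2 had 100.5 CPM in the Pink1 KO and 66.7 CPM in the WT library, a ratio of 1.51 (1.08 to 2.10), and in cluster 7 it had 130 CPM in the Pink1 KO and 95.2 CPM in the WT library, with an interval that held 1. The class holds more of cluster 9 in the Pink1 KO library (588 of 1667 nuclei) than in the WT library (277 of 1056), so its ratio also carries the mix of clusters. Goblet-like nuclei had 10 and 7 Sgk2 counts. Sgk1 and Sgk2 thus shared their highest cluster, but Sgk1 had enough counts in all 6 classes and Sgk2 in colonocyte-like nuclei alone.

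**Figure D2:**
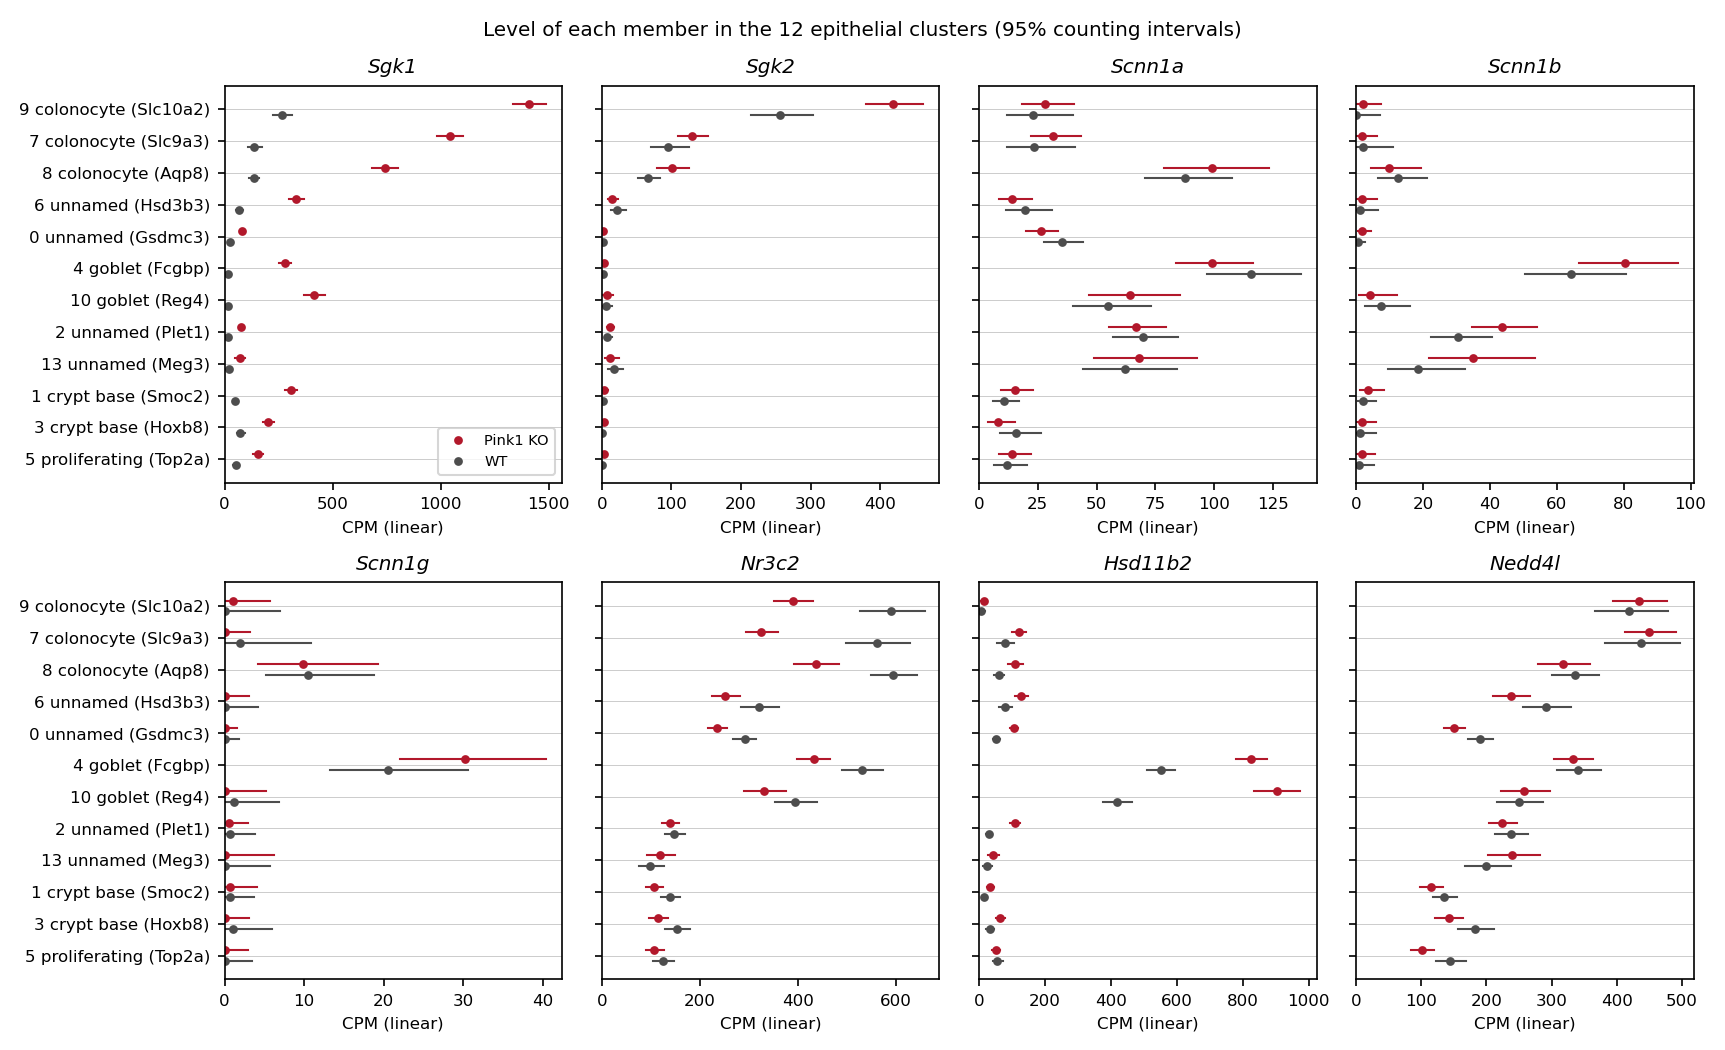
Level of each gene in the 12 epithelial clusters in CPM on linear axes that differ between panels, with Pink1 KO (red) above WT (grey) and 95% intervals for counting error. Sgk1 and Sgk2 peak in cluster 9, Scnn1b and Scnn1g in cluster 4, and Hsd11b2 in clusters 4 and 10.

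The alpha subunit gene Scnn1a (ENSMUSG00000030340; chromosome 6, 125320659 to 125344943) was the most widely spread of the channel genes and showed no cluster in which its ratio's interval left out 1. Over all nuclei it had 656 counts in the Pink1 KO and 608 in the WT library, 35.4 CPM in the Pink1 KO and 40.3 CPM in the WT library, a ratio of 0.877 (0.785 to 0.981). In colonocyte-like nuclei it had 48.9 CPM in the Pink1 KO and 55.5 CPM in the WT library, a ratio of 0.882 (0.686 to 1.14), and goblet-like ones had 87.8 CPM in the Pink1 KO and 90.6 CPM in the WT library (0.970, 0.787 to 1.19). Its highest clusters were colonocyte-like cluster 8, with 99.3 CPM in the Pink1 KO and 87.7 CPM in the WT library, and goblet-like cluster 4, with 99.2 CPM in the Pink1 KO and 116 CPM in the WT library. The intervals of these clusters overlapped in both libraries. Within the colonocyte-like class the level of cluster 8 was 3.56 times that of cluster 9 in the Pink1 KO library (2.28 to 5.73) and 3.85 times in the WT library (2.10 to 7.72). Cluster 9, where Sgk1 and Sgk2 stood highest, thus had 27.9 CPM in the Pink1 KO and 22.8 CPM in the WT library of Scnn1a. Crypt-base and proliferating nuclei had 12.6 CPM in the Pink1 KO and 12.4 CPM in the WT library.

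The beta subunit gene Scnn1b (ENSMUSG00000030873; chromosome 7, 121865038 to 121918514) had its highest levels in goblet-like cluster 4 and unnamed clusters 2 (led by Plet1 and Car8) and 13 (led by Meg3 and Rian). This held in both libraries, but in the WT library the interval of cluster 13 overlapped those of clusters 8 and 10. Together clusters 2, 4 and 13 had 222 of its 259 counts in the Pink1 KO library (85.7%, exact interval 80.9 to 89.7) and 132 of 169 in the WT library (78.1%, 71.1 to 84.1). Since they are the clusters with the highest level, these shares are a description only. In goblet-like nuclei it had 55.7 CPM in the Pink1 KO and 40.8 CPM in the WT library, a ratio of 1.37 (1.02 to 1.83). Cluster 4 made up 735 of 1125 Pink1 KO and 548 of 971 WT goblet-like nuclei, so this ratio also carries the mix of clusters. With clusters weighted equally it was 1.18. In cluster 4 the values were 80.4 CPM in the Pink1 KO and 64.3 CPM in the WT library, with a ratio of 1.25 (0.929 to 1.69). Cluster 2 had 43.5 CPM in the Pink1 KO and 30.4 CPM in the WT library and cluster 13 had 35.0 CPM in the Pink1 KO and 18.6 CPM in the WT library, and both intervals of the ratio held 1. Scnn1b overlaps the gene Cog7 on the opposite strand. The labels do not say if reads were counted by strand, and whether Cog7 reads are among its counts was not tested.

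The goblet-like clusters differed from each other in this subunit. Cluster 10 had 3 Scnn1b counts in the Pink1 KO and 6 in the WT library, 4.19 CPM in the Pink1 KO and 7.31 CPM in the WT library. Cluster 4 thus stood 19.2 times higher in the Pink1 KO library (6.42 to 94.5) and 8.80 times higher in the WT library (3.86 to 24.7). For Scnn1a the difference was smaller, 1.55 times in the Pink1 KO library (1.10 to 2.20) and 2.11 times in the WT library (1.497 to 3.03).

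The gamma subunit gene Scnn1g (ENSMUSG00000000216; chromosome 7, 121734479 to 121768475) had the fewest counts of the 8 genes, 57 in the Pink1 KO and 40 in the WT library. Cluster 4 held 45 of them in the Pink1 KO and 24 in the WT library, a level of 30.2 CPM in the Pink1 KO and 20.6 CPM in the WT library and a ratio of 1.47 (0.874 to 2.51). Cluster 8 held 8 and 11, which is 9.81 CPM in the Pink1 KO and 10.5 CPM in the WT library. The level of cluster 4 was 3.08 times that of cluster 8 in the Pink1 KO library (1.44 to 7.56). In the WT library it was 1.96 times (0.926 to 4.44), with an interval that held 1. No other epithelial cluster had more than 1 count in either library.

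Colonocyte-like nuclei as a class had few counts of either subunit. Scnn1b had 12 in the Pink1 KO and 14 in the WT library, a ratio of 0.605 (0.256 to 1.41), and Scnn1g had 9 and 12, a ratio of 0.529 (0.197 to 1.37). Most of them lay in cluster 8, with 8 and 13 counts of Scnn1b and 8 and 11 of Scnn1g. That cluster made up 412 of 1667 Pink1 KO and 498 of 1056 WT colonocyte-like nuclei. Within it the Scnn1b ratio was 0.791 (0.284 to 2.06). Neither subunit showed a difference that these counts could resolve.

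Nuclei of cluster 4 with a UMI of the beta or gamma subunit gene, 124 in the Pink1 KO and 72 in the WT library, were checked for colonocyte markers. All of them held Muc2 and all held Fcgbp, a leading gene of this cluster. Among the other nuclei of the cluster, Muc2 was in 611 of 611 and 476 of 476, and Fcgbp in 97.2% and 97.3%. These markers thus do not set the nuclei with a subunit apart. Aqp8 was found in 1 of 124 Pink1 KO and 0 of 72 WT nuclei, which allows a share of up to 4.17%, and Car4 in 2 and 4, against 8 of 611 and 3 of 476 (Aqp8) and 10 of 611 and 13 of 476 (Car4) among the other nuclei of the cluster. Aqp8 was thus near 0 in them, and Car4 was in few of them. Guca2a, the guanylin gene, was found in 13.7% of these Pink1 KO and 15.3% of these WT nuclei, and in 14.9% and 7.56% of the other nuclei of the cluster, so the libraries differ in its direction. Slc37a2 was in 2 of 124 Pink1 KO and 0 of 72 WT nuclei, against 5 of 611 and 10 of 476. Krt20, a keratin of differentiated surface epithelium, was found in 31.5% of these Pink1 KO and 25.0% of these WT nuclei, and in 18.5% and 10.7% of the other nuclei of the cluster. Median depths were 1832 and 2212 UMIs with a subunit and 1862 and 1910 without.

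The subunits met in few single nuclei at this depth. In cluster 4, 11 of 98 Pink1 KO nuclei with Scnn1b also held Scnn1g (11.2%), against 4.08% of those without Scnn1b, and in the WT library 9 of 64 did (14.1%), against 1.65%. All 3 subunits were found together in 3 Pink1 KO and 4 WT nuclei, and all of these were in cluster 4. Scnn1a and Scnn1b met in 8.66% of Pink1 KO and 18.9% of WT nuclei with Scnn1a there, with 14.3% and 9.84% of the nuclei without Scnn1a holding Scnn1b, so the libraries differ in the direction of this overlap. These shares rest on 11 and 21 nuclei with both transcripts. Depth differed as well. Nuclei with and without Scnn1b had medians of 1822 and 1864 UMIs in the Pink1 KO and 2212 and 1910 in the WT library. For Scnn1a the medians were 2100 and 1805 in the Pink1 KO and 2357 and 1865 in the WT library.

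The receptor gene Nr3c2 (ENSMUSG00000031618; chromosome 8, 76899442 to 77245012) was lower in the Pink1 KO library. Among the 3 epithelial classes the ratio was lowest in colonocyte-like nuclei, with an interval that overlapped that of crypt-base and proliferating nuclei. Over all nuclei it had 3704 counts in the Pink1 KO and 3947 in the WT library, 200 CPM in the Pink1 KO and 262 CPM in the WT library, a ratio of 0.763 (0.730 to 0.798). Colonocyte-like nuclei had 378 CPM in the Pink1 KO and 586 CPM in the WT library, a ratio of 0.645 (0.594 to 0.700). The goblet-like class stood at 399 CPM in the Pink1 KO and 475 CPM in the WT library (0.841, 0.766 to 0.922), and crypt-base and proliferating nuclei had 109 CPM in the Pink1 KO and 138 CPM in the WT library (0.786, 0.689 to 0.897). The share of free RNA was the larger one in the WT library, as given for Muc2. With the same 10% free RNA subtracted from both libraries the colonocyte-like ratio was 0.639. An equal subtraction cannot address this unequal share. The ratio's upper bound was under 1 in 9 of 12 epithelial clusters, and the interval held 1 in the other 3, which were clusters 2, 5 and 13.

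Each colonocyte-like cluster had a lower Nr3c2 level in the Pink1 KO library. Cluster 7 had 326 CPM in the Pink1 KO and 561 CPM in the WT library (0.580), cluster 9 had 390 CPM in the Pink1 KO and 591 CPM in the WT library (0.661), and cluster 8 had 438 CPM in the Pink1 KO and 596 CPM in the WT library (0.735). Within the WT library the intervals of these clusters overlapped. In both libraries the colonocyte-like level exceeded that of crypt-base and proliferating nuclei, by 3.48 times in the Pink1 KO library (3.11 to 3.90) and 4.24 times in the WT library (3.82 to 4.72). The 3 classes outside the epithelium had few counts, 12 (Pink1 KO) and 20 (WT) for fibroblast-like, 20 and 22 for smooth muscle-like and 6 and 17 for macrophage and dendritic-like nuclei. These levels are near that of free RNA, so no difference is read from them. Lymphatic endothelium-like nuclei stood higher, at 132 CPM in the Pink1 KO and 131 CPM in the WT library (19 and 14 counts). The opposite-strand gene Gm10649 overlaps Nr3c2.

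Nr3c1 encodes the glucocorticoid receptor, which binds the same palindrome. Its ratio was 0.984 (0.840 to 1.15) among colonocyte-like, 1.04 (0.776 to 1.40) among goblet-like and 0.941 (0.825 to 1.07) among crypt-base and proliferating nuclei. In colonocyte-like nuclei its interval lay wholly above that of Nr3c2.

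**Figure D3:**
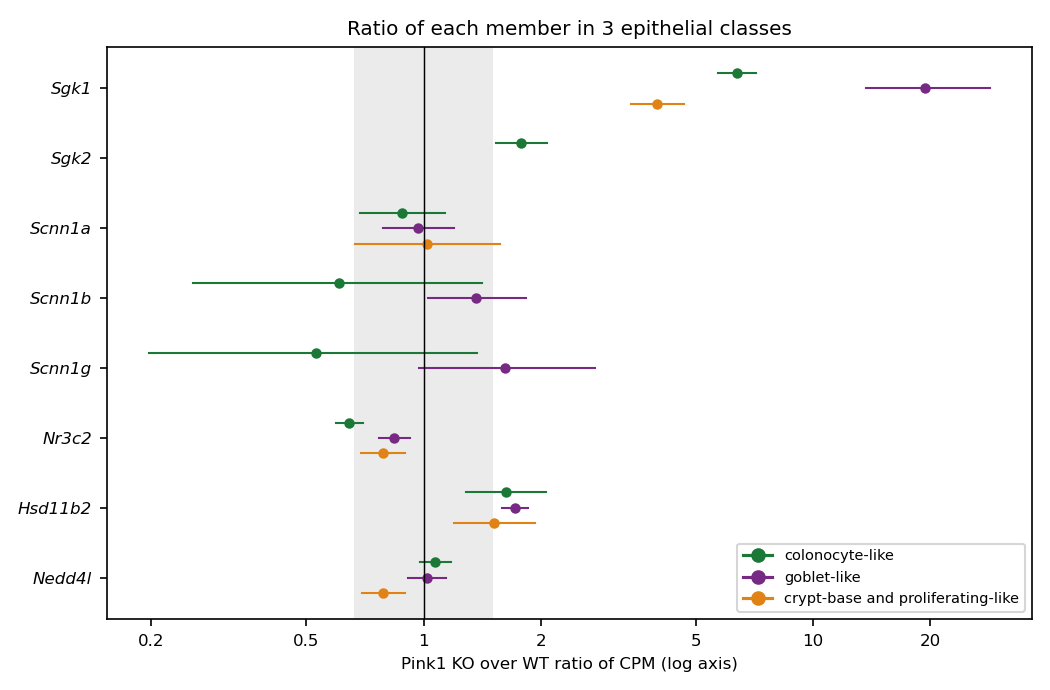
Ratio of Pink1 KO over WT for each gene in 3 epithelial classes on a log axis, with 95% intervals for counting error; the grey band spans 1.5-fold in either direction, and a class with under 20 counts has no point. Sgk1 lies at 3.97 or more in all 3 classes, Hsd11b2 at 1.52 to 1.72, Nr3c2 at 0.645 to 0.841, and the intervals of Scnn1a hold 1.

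Hsd11b2 (ENSMUSG00000031891; chromosome 8, 105518755 to 105523988), the enzyme gene that shields the receptor, was higher in the Pink1 KO library and was mainly a goblet-like transcript. Goblet-like nuclei held 63.0% of its counts in the Pink1 KO and 66.3% in the WT library. They had 851 CPM in the Pink1 KO and 496 CPM in the WT library (1879 and 985 counts), a ratio of 1.72 (1.59 to 1.86), which is 10.4 times the colonocyte-like level in the Pink1 KO library (9.11 to 12.0) and 9.87 times in the WT library (8.07 to 12.2). Thinned to 500 UMIs, 30.2% of Pink1 KO and 19.7% of WT goblet-like nuclei held a UMI, against 0.380% and 0 of the smooth muscle-like nuclei (0 of 295, which allows a share of up to 1.02%). Unthinned, 66.8% and 46.8% of goblet-like nuclei did, against 1.14% and 0.678% of smooth muscle-like ones; goblet-like nuclei had medians of 1804 and 1865 UMIs.

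Both goblet-like clusters showed the Hsd11b2 difference, and their levels stood apart in the WT library alone. Cluster 10 had 903 CPM in the Pink1 KO and 418 CPM in the WT library, a ratio of 2.16 (1.89 to 2.47), and cluster 4 had 826 CPM in the Pink1 KO and 551 CPM in the WT library, with an interval of the ratio from 1.36 to 1.65. Cluster 10 thus stood at 1.09 times cluster 4 in the Pink1 KO library (0.993 to 1.20) and at 0.759 times in the WT library (0.664 to 0.867). In unnamed cluster 2 the level was 109 CPM in the Pink1 KO and 29.8 CPM in the WT library, a ratio of 3.67 (2.64 to 5.20), the highest for this gene. The lower bound was above 1 in 9 of the 11 epithelial clusters with a ratio. In proliferating cluster 5, led by Top2a, the ratio was 0.921 (0.639 to 1.33).

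Colonocyte-like nuclei had 81.7 CPM of Hsd11b2 in the Pink1 KO and 50.2 CPM in the WT library, a ratio of 1.63 (1.29 to 2.06). Crypt-base and proliferating nuclei had 48.7 CPM in the Pink1 KO and 32.0 CPM in the WT library, a ratio of 1.52 (1.20 to 1.93). Cluster 7 had 120 CPM in the Pink1 KO and 77.7 CPM in the WT library and cluster 8 had 108 CPM in the Pink1 KO and 59.1 CPM in the WT library. Cluster 9 was nearly without it, with 13 Pink1 KO and 3 WT counts, 13.4 CPM in the Pink1 KO and 5.70 CPM in the WT library. Outside the epithelium the level was 12.0 CPM in the Pink1 KO and 19.9 CPM in the WT library. Cluster 9 was thus near that level in the Pink1 KO library and under it in the WT library. The colonocyte-like cluster with most Sgk1 and Sgk2 was therefore the one with least Hsd11b2, while its Nr3c2 interval overlapped those of the other colonocyte-like clusters in the WT library.

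The ligase gene Nedd4l (ENSMUSG00000024589; chromosome 18, 64887705 to 65217828) differed little between the libraries. It had 4024 counts in the Pink1 KO and 3408 in the WT library, 217 CPM in the Pink1 KO and 226 CPM in the WT library, a ratio of 0.960 (0.917 to 1.01). In colonocyte-like nuclei it had 409 CPM in the Pink1 KO and 382 CPM in the WT library, a ratio of 1.07 (0.978 to 1.17), and goblet-like ones had 309 CPM in the Pink1 KO and 303 CPM in the WT library (1.02, 0.912 to 1.14). Crypt-base and proliferating nuclei were lower in the Pink1 KO library, at 118 CPM against 151 CPM in the WT library, a ratio of 0.787 (0.693 to 0.893). The upper bound was under 1 in 4 of 12 epithelial clusters (0, 3, 5 and 6). None of these is a named colonocyte-like or goblet-like cluster.

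Nedd4l, like Sgk1, had a level outside the epithelium well above the Muc2 gauge in both libraries. Smooth muscle-like nuclei had 306 CPM in the Pink1 KO and 291 CPM in the WT library, 5.97 times the fibroblast-like level in the Pink1 KO library (4.44 to 8.14) and 4.31 times in the WT library (3.03 to 6.24). Enteroendocrine-like nuclei had 288 CPM in the Pink1 KO and 280 CPM in the WT library and tuft-like nuclei 226 CPM in the Pink1 KO and 379 CPM in the WT library (20 and 28 counts). A pair of opposite-strand genes overlaps it.

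By class, the 8 genes spread in both directions. In colonocyte-like nuclei 3 of 8 were at least 1.5-fold higher (Sgk1, Sgk2 and Hsd11b2) and 3 as much lower (Nr3c2, and Scnn1b and Scnn1g on under 15 counts a library), where 7.20% and 13.5% of 10256 genes did so. The 3 lower calls depend on the processing: Nr3c2 was at 0.705 with each nucleus weighted equally, and thinned to 500 UMIs Scnn1b was at 0.846 and Scnn1g at 0.952. In goblet-like nuclei 3 of the 7 with 20 counts were higher (Sgk1, Hsd11b2 and, with an interval that held 1 and a ratio of 1.38 when clusters are weighted equally, Scnn1g) and none lower, where 6.34% and 12.4% of genes were. Among crypt-base and proliferating nuclei, Sgk1 and Hsd11b2 of 5 measured genes were higher and none lower (5.30% and 7.18% of genes). The Hsd11b2 call is at the edge of the fold, with ratios from 1.22 (libraries clustered separately) to 1.85 over the alternatives. Outside the epithelium 3 genes had 20 counts, and Sgk1 was higher in each class: beside 11.4% of genes for fibroblast-like, 13.6% for smooth muscle-like and 15.7% for macrophage and dendritic-like nuclei. Downward, 10.4%, 11.4% and 15.0% of genes passed the fold in these classes. Nr3c2 was among them in all 3 on the few counts given before, but without doublet removal its ratio was 0.709 in fibroblast-like and 0.810 in macrophage and dendritic-like nuclei, and thinned to 500 UMIs it was 0.895 in smooth muscle-like nuclei, so these calls are not read as differences. Nedd4l passed in macrophage and dendritic-like nuclei, on 20 Pink1 KO and 23 WT counts, with ratios between 0.423 and 0.768 over the alternatives.

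Genes with the pattern most like Sgk1 and Scnn1a were taken as those with the highest Pearson r of log2(CPM + 5) over 12 points, 6 classes in 2 libraries, among 9424 genes with at least 200 counts. The points share their libraries, so r is a description. For Sgk1 these were Txnip, an inhibitor of thioredoxin (0.88), Pafah1b1, a regulator of dynein (0.88), the clock factor gene Arntl (0.87), the RNA helicase gene Ddx3x (0.87) and Sdhb, a subunit of succinate dehydrogenase (0.87). For Scnn1a they were the calpain gene Capn5 (0.97), Dop1b (0.94), Cmpk1, a nucleoside monophosphate kinase (0.93), the actin-severing protein gene Scin (0.93) and Osbpl2, of the oxysterol-binding protein family (0.92). Among the members themselves, Sgk1 had r = 0.63 with Sgk2 and between -0.06 and 0.19 with the other 6, of which Scnn1g is under that count minimum.

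The lists of other genes of the pathway are set beside all genes measured, where the 1.5-fold limit was passed upward by 7.20% and downward by 13.5% in colonocyte-like nuclei, and by 6.34% and 12.4% in goblet-like nuclei, with a median log2 ratio of -0.07 in both. Of the kinase cascade around Sgk1, 1 of 11 measured members was at least 1.5-fold higher in colonocyte-like nuclei and none lower, a share near that of all genes, and the median log2 ratio was -0.03. That member was Wnk4, a kinase that controls salt transporters, with 19.6 CPM in the Pink1 KO and 10.5 CPM in the WT library, a ratio of 1.86 (1.12 to 3.19). None of the 12 measured among goblet-like nuclei passed in either direction, with a median of 0.03. Of the 7 Sgk1 substrates none passed in either class, with medians of -0.03 and -0.10. Gsk3b, the one with most counts, had ratios of 1.02 (0.911 to 1.15) in colonocyte-like and 0.970 (0.856 to 1.10) in goblet-like nuclei.

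Of the genes for channel turnover and cleavage, 1 of 11 was higher in colonocyte-like nuclei and none lower (median 0.20, with 7.20% of all genes higher), and 2 of 11 were higher in goblet-like nuclei and none lower (median 0.35, with 6.34% of all genes higher). Tmprss4, a membrane serine protease, had 156 CPM in Pink1 KO and 95.7 CPM in WT colonocyte-like nuclei, a ratio of 1.63 (1.38 to 1.94). Ywhab, a 14-3-3 protein gene, had 141 CPM in Pink1 KO and 91.6 CPM in WT goblet-like nuclei (1.54, 1.28 to 1.86). The ubiquitin protease gene Usp2 passed the fold there on 36 and 21 counts, with an interval that held 1.

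Transport genes beside the channel came next. Colonocyte-like nuclei had 2 of 11 higher and 2 lower (median 0.25), where 7.20% and 13.5% of all genes were. In goblet-like nuclei 2 of 11 were higher and 1 lower (median -0.01), where 6.34% and 12.4% were. The lower counts are thus near the share of all genes. Slc9a3, the apical sodium-proton exchanger, had 1181 CPM in Pink1 KO and 505 CPM in WT colonocyte-like nuclei, a ratio of 2.34 (2.18 to 2.51). It is a leading gene of cluster 7, which makes up more of the class in the Pink1 KO library (667 nuclei against 281), and it was also at least 1.5-fold higher within each of clusters 7, 8 and 9. The potassium channel gene Kcnn4 had 19 counts in the Pink1 KO and 3 in the WT library there, a ratio of 4.47 (1.32 to 23.6). Lower in the Pink1 KO library were Fxyd4, a sodium pump regulator, with 62.8 CPM against 101.9 CPM in the WT library and a ratio of 0.616 (0.503 to 0.754), and the chloride uptake transporter gene Slc12a2, with 39.1 CPM in the Pink1 KO and 73.2 CPM in the WT library and 0.535 (0.417 to 0.685). Cluster 8 made up 412 of 1667 Pink1 KO and 498 of 1056 WT colonocyte-like nuclei. Ratios of this class can thus also carry the mix of clusters. In goblet-like nuclei the proton-potassium pump gene Atp12a, a leading gene of cluster 8, had 128 CPM in the Pink1 KO and 32.2 CPM in the WT library, a ratio of 3.98 (3.02 to 5.30), and the chloride channel gene Cftr 21.3 CPM in the Pink1 KO and 37.2 CPM in the WT library, a ratio of 0.571 (0.388 to 0.835).

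Genes known to be induced by corticosteroids, a list that shares Fkbp5, Usp2 and Ndrg2 with the other lists, are given by cell class; differences between classes were not tested. In fibroblast-like nuclei 5 of 8 were at least 1.5-fold higher and 1 lower (median log2 ratio 1.22 against -0.01 over all genes, of which 11.4% were higher and 10.4% lower). In smooth muscle-like nuclei 4 of 8 were higher and 1 lower (median 0.51 against 0.01, with 13.6% of all genes higher and 11.4% lower). For macrophage and dendritic-like nuclei, 3 of the 4 measured genes were higher (median 1.43 against 0.01, with 15.7% of all genes higher). Among goblet-like nuclei 4 of 7 were higher and none lower (median 0.61 against -0.07, with 6.34% of all genes higher). The stem and dividing nuclei of the crypt had 3 of 8 higher and 1 lower (median 0.48 against -0.01, with 5.30% of all genes higher and 7.18% lower). Colonocyte-like nuclei, with the highest Sgk1 level, had 1 of 8 higher and 2 lower (median 0.13 against -0.07), near the 7.20% and 13.5% of all genes.

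**Figure D4:**
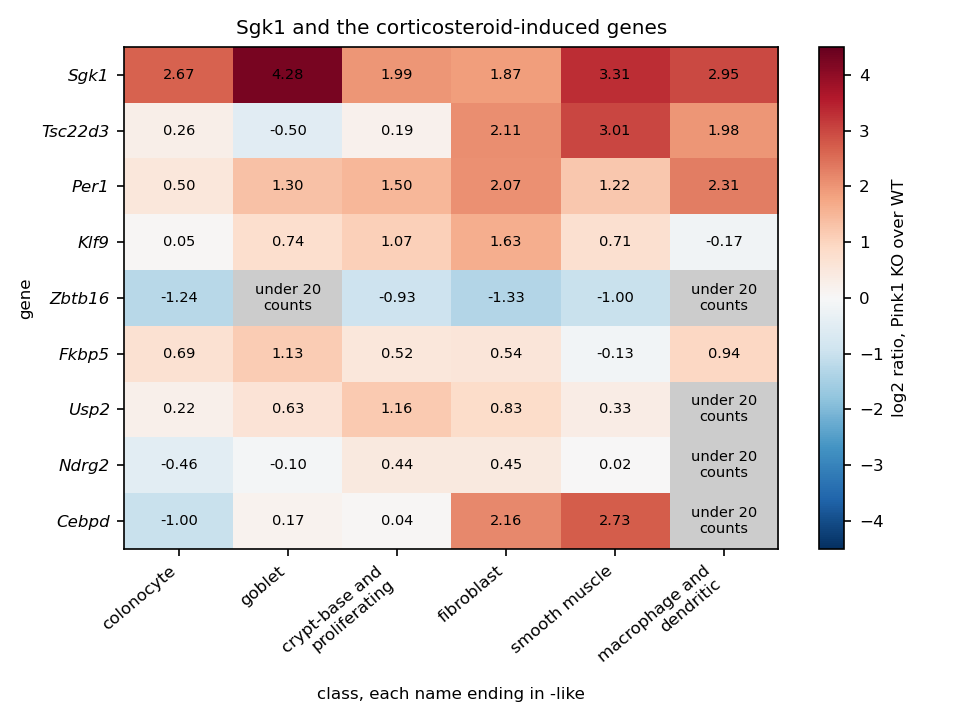
Log2 ratio of Pink1 KO over WT for Sgk1 and the 8 corticosteroid-induced genes in 6 classes; red is higher in Pink1 KO, blue lower, and grey cells had under 20 counts. The Sgk1 row is positive in all 6 classes (1.87 to 4.28), while Tsc22d3 is at 2.11 in fibroblast-like and -0.50 in goblet-like nuclei.

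The chaperone gene Fkbp5, an inhibitor of steroid receptors, had 380 CPM in Pink1 KO and 235 CPM in WT colonocyte-like nuclei, a ratio of 1.61 (1.45 to 1.80), and 50.7 CPM in Pink1 KO and 23.2 CPM in WT goblet-like nuclei (2.19, 1.54 to 3.16). The clock gene Per1 had 33.5 CPM in Pink1 KO and 13.6 CPM in WT goblet-like nuclei (2.47, 1.57 to 3.99), and the transcription factor gene Klf9 had 267 CPM in the Pink1 KO and 160 CPM in the WT library (1.67, 1.46 to 1.93). Cebpd, another transcription factor gene, had 18.2 CPM in Pink1 KO and 36.4 CPM in WT colonocyte-like nuclei (0.501, 0.347 to 0.720). Fkbp5 was the 1 member of 6 measured steroid receptor partners to pass the fold in colonocyte-like and in goblet-like nuclei, upward in both, and none passed downward. Of all genes, 7.20% passed upward and 13.5% downward in colonocyte-like nuclei, and 6.34% and 12.4% in goblet-like nuclei. Hsd11b1, which regenerates active corticosterone, had no count in colonocyte-like nuclei, which allows up to 1.01 CPM in the Pink1 KO and 1.43 CPM in the WT library, and none in goblet-like nuclei (up to 1.36 CPM in the Pink1 KO and 1.51 CPM in the WT library). It had 37 Pink1 KO and 18 WT counts in fibroblast-like nuclei.

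Outside the epithelium the following genes were chosen after their values were seen. Tsc22d3, the glucocorticoid-induced leucine zipper gene, had 392 CPM in Pink1 KO and 91.0 CPM in WT fibroblast-like nuclei, a ratio of 4.31 (3.27 to 5.77), and 108 CPM in the Pink1 KO and 13.4 CPM in the WT library in smooth muscle-like nuclei, a ratio of 8.07 (3.55 to 22.6). Cebpd had 895 CPM in the Pink1 KO and 201 CPM in the WT library in fibroblast-like nuclei, a ratio of 4.45 (3.70 to 5.40). Zbtb16, a zinc finger transcription factor gene of the same list, ran the other way, with 149 CPM in the Pink1 KO and 374 CPM in the WT library in fibroblast-like nuclei, a ratio of 0.399 (0.325 to 0.489). Tsc22d3 in goblet-like nuclei had 22 Pink1 KO and 28 WT counts, a ratio of 0.707 (0.385 to 1.28). The genes of this list thus did not all share the direction of Sgk1.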

How the data were processed

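Nuclei sorted after SYTOX Green staining were run on the 10x Genomics 3' platform with a target of 10000 per library, per the labels' protocols. The authors deposited a table of UMI counts, 1 value per gene and barcode. Per the file headers it came from Cell Ranger 6.1.2, and the submitters' processing notes name mm10 (GRCm38) as the build. Which annotation was used, if intronic reads were counted, and any doublet removal before deposit are not stated in the labels. The smallest barcode total was 500 UMIs in both libraries. Gene coordinates are from GENCODE M21, which matched 32158 of 32285 IDs, and promoter windows from RefSeq (GRCm38.p6). A 3' tag table does not allow levels to be compared between genes.

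Barcodes needed 500 UMIs, 300 genes and at most 10% mitochondrial UMIs, which 12146 Pink1 KO and 8888 WT barcodes passed. The highest Scrublet scores, at 0.8% per 1000 barcodes, were removed as doublets (1180, 9.72%, and 632, 7.11%). Scanpy 1.11.5 with Python 3.11.15 reduced 2000 variable genes to 30 principal components, and Leiden clustering (leidenalg 0.10.2, 20 neighbours, resolution 1) was run on both libraries together without integration. Clustering did not use the 8 genes, Pink1, mitochondrial genes or genes of the sex chromosomes that mark sex. A cluster took the class whose markers had the highest mean log2 fold, at least 0.3, with at least 3 markers 2-fold above the other clusters. Because these names were made here, they may not match the study's own. Among the leading genes, clusters 6 (Reg3b, Reg3g), 8 (Saa1) and 4 (Slfn4) had immune or stress genes.

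Counts were summed per class and library. Intervals are exact (Poisson, Clopper-Pearson, conditional binomial) at 95% and cover counting error only, since PCR and mice add error that these files do not show. A floor is 3 counts, 0.162 CPM over all Pink1 KO and 0.199 CPM over all WT nuclei. The ratio and interval were tried on simulated Poisson counts, which have the counting error that the interval assumes. That run checks the calculation and says nothing of the spread between nuclei or mice. The members and lists were chosen with earlier results of these data known, and support nothing on their own. The text names all 8 members, list genes at least 1.5-fold apart with an interval leaving out 1 in colonocyte-like or goblet-like nuclei (otherwise the list's member with most counts), and the 5 genes most like Sgk1 and Scnn1a. Fos, Nr3c1, Hsd11b1 and Usp2 are named as well, and were not picked by this rule. Alternatives were other filters, clusterings, scalings, thinning, free RNA subtraction and, chosen after seeing the data, equal weight for the clusters of a class.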

Additional observations from a re-analysis of the deposited data

How the results depend on the processing

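The 33 results (29 member ratios, 2 share ratios and 2 list counts) were recomputed under up to 12 alternatives, and no called ratio turned its direction: 340 of 351 values stayed within the main value's interval (list counts: within 1.5 times the main count), and 11 moved past it. The Sgk1 ratio in colonocyte-like nuclei was 5.64 with the looser filter and ran from 5.64 to 7.13 over the alternatives. In goblet-like nuclei it ran up to 25.8, with 16.99 the lowest, and in crypt-base and proliferating nuclei from 3.33 to 4.59. The Nr3c2 ratio in colonocyte-like nuclei was 0.705 with each nucleus weighted equally, and ran from 0.614 to 0.705. The Hsd11b2 ratio in goblet-like nuclei ran from 1.63 to 1.82. In smooth muscle-like nuclei the Sgk1 ratio ran from 4.45 to 14.9, in macrophage and dendritic-like nuclei from 3.75 to 8.30, and in fibroblast-like nuclei it was 6.18 with clusters weighted equally. The Hsd11b2 ratio in crypt-base and proliferating nuclei ran from 1.22 to 1.85. The Nr3c2 ratio ran from 0.302 to 0.709 in fibroblast-like, from 0.280 to 0.946 in smooth muscle-like and from 0.214 to 0.810 in macrophage and dendritic-like nuclei. The colonocyte-like ratio of Scnn1b ran from 0.476 to 0.947, that of Scnn1g from 0.432 to 0.952 and that of Scnn1a from 0.788 to 1.19, the highest with clusters weighted equally, so Scnn1a lay on both sides of 1. With a 2-fold limit 2 corticosteroid-induced genes were higher in goblet-like nuclei in place of 4. The cause of these shifts was not tested. No paired analysis was possible because each genotype has 1 library, and for the same reason no replicate could be left out. Depth limits Scnn1b and Scnn1g in colonocyte-like nuclei, where neither passed 14 counts in a library, and Sgk1 outside the epithelium, with 6 WT counts in smooth muscle-like and 5 in macrophage and dendritic-like nuclei. The median log2 ratio that median-ratio scaling subtracts lay between -0.05 and 0.06 across the 6 classes.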

Other observations

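Classes with fewer than 100 nuclei in the WT library carry no ratio, but their Sgk1 levels are given here. Lymphatic endothelium-like nuclei had 208 CPM of Sgk1 in the Pink1 KO and 84.0 CPM in the WT library, from 30 Pink1 KO and 9 WT counts. Pericyte-like nuclei, of the cells that wrap small vessels, had 179 CPM in the Pink1 KO and 43.2 CPM in the WT library, from 38 Pink1 KO and 5 WT counts. After thinning, 4.20% of Pink1 KO pericyte-like nuclei (exact interval 1.56 to 8.91) and 4.00% of WT ones (0.833 to 11.2) had an Sgk1 UMI, and these intervals overlapped. Hormone-secreting enteroendocrine-like nuclei had 20 Pink1 KO and 2 WT counts, and chemosensory tuft-like nuclei had 3 Pink1 KO and 2 WT counts.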
